A study of Arabidopsis thaliana with 13 samples.

Results

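The low oxygen response genes are 37 Arabidopsis thaliana loci, taken by identifier from the 33033 genes of the deposited table. They hold the oxygen sensing genes PCO1 and PCO2, the transcription factor genes HRE1, HRE2, LBD41 and HRA1, 5 fermentation and sugar use genes, the phytoglobin gene HB1, 2 redox and calcium genes and 23 others, several of which have no known function. All 37 passed the filter on low values and are among the 21091 genes tested. They were measured by RNA sequencing of whole seedlings in 13 libraries, in TPM, which scales fragments by transcript length and library size.

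Seedlings of the etr1-1 line gave 2 libraries after PFT-alpha and 2 after mock, and Col-0 wild type gave 3 each after PFT-alpha, ACC and mock. The etr1-1 allele changes an amino acid of the ethylene receptor ETR1 and makes the plant insensitive to ethylene, so TPM of ETR1 cannot check the genotype. All seedlings received 6 h of white light, stood in darkness at 22 °C until they were 4 days old, and were then kept for 4 h in liquid medium. The medium held 30 µM PFT-alpha (pifithrin-alpha, known as an inhibitor of the animal protein p53), 10 µM ACC (the precursor of ethylene) or 1‰ DMSO (mock). Whether the PFT-alpha and ACC media also held DMSO is not stated, so a difference in solvent from mock cannot be told apart from the treatments. The comparisons ask whether the small molecule acts like ethylene, and whether its action is also seen in plants insensitive to ethylene.

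In plants, oxygen is sensed through ERF transcription factors of group VII, such as RAP2.2 and RAP2.12. In air, PCO enzymes oxidise the start of these proteins, which marks them for degradation through the N-degron pathway. When oxygen falls the factors persist and switch on genes for fermentation, sugar use and phytoglobin, along with the PCO genes, which act back on the pathway. Ethylene gathers around submerged tissue, and in Arabidopsis it raises phytoglobin 1, which removes nitric oxide and so also stabilises these factors.

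The group VII factors are known to act through the hypoxia-responsive promoter element. A core of it, AAACCA followed after 3 bases of any kind by GC, was searched on both strands in the 500 bases before the start of each gene. It was found in 4 of 37 members (10.8%) and in 441 of 27443 protein-coding genes (1.61%). AAACCA alone, which every match of the longer core contains, was in 19 members (51.4%) and in 12976 genes (47.3%). The matches of ADH1 and AT4G10270 are shown because these genes return in the comparisons. They are printed 5′ to 3′ along the gene's own strand, with 20 bases on each side and the core in capitals.
ADH1, first base 166 bases before the start: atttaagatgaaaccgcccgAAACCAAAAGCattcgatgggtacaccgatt
AT4G10270, first base 230 bases before the start: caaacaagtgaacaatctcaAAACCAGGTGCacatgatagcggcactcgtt
AT4G10270, first base 100 bases before the start: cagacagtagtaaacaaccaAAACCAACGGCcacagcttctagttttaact
In the RefSeq annotation and genome of TAIR10.1 these stretches lie at chr1:28975069-28975119 (ADH1, plus strand), chr4:6374484-6374534 and chr4:6374614-6374664 (AT4G10270, plus strand). In NIP2;1 the stretch of the match with 20 bases on each side overlaps the neighbouring gene AT2G34400. A match is a description of the letters and not a binding site. No match of the longer core was found in this window for PCO1, PCO2, HRA1, HB1 or PDC1. AAACCA alone was found there for PCO2 and PDC1, and not for PCO1, HRA1 or HB1.

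Depth, estimated from the steps in low TPM values, was 20.1 to 29.0 M fragments a library, so that a 1500-base transcript at 1 TPM had been counted from 19.6 to 28.7 fragments. Several libraries stood apart. Replicate 3 of all 3 wild-type groups held 46420 to 57160 summed TPM of the 9 antenna and Rubisco genes listed, against 19490 to 31210 in the other 10 libraries. In the library labelled etr1-1 mock 1, the ethylene receptor gene ERS2 measured 46.9 TPM, against 11.04 TPM in etr1-1 mock 2 and 45.4 to 50.4 TPM in the wild-type ACC libraries. HLS1, a gene of the apical hook, measured 103.5 TPM there, against 33.8 TPM in etr1-1 mock 2 and 84.8 to 105.8 TPM in the wild-type ACC libraries. In these genes that library thus went against its label and lay at the level of ACC-treated wild type. Whether it was exchanged with another sample was not tested, and every value of etr1-1 mock, of PFT-alpha against mock in etr1-1 and of the interaction below rests in part on it. It also enters the shared estimate of spread, and so the SE and adjusted p of every comparison fitted across all 13 libraries. The seed remnant list, with 10 of 10 genes above 0 in every library, summed to 387 TPM in that library, against 4948 to 6021 TPM in the other 3 etr1-1 libraries. It summed to 276 to 2136 TPM in wild type under PFT-alpha, 285 to 3139 TPM under ACC and 586 to 2472 TPM in mock. Of 6 root markers 4 were above 0 in every library (COBL9 and IRT1 were at 0 in some), and all 4 shoot markers and the markers PORA and HLS1 of dark-grown seedlings were present throughout. The root markers summed to 49.1 to 62.3 TPM in replicate 3 of the wild-type groups, against 68.4 to 92.1 TPM in the other 10 libraries. The part of these differences in the results below was not tested. Values of AT4G10270, NIP2;1, SRO5 and PP2-A13 are uncertain, because 79%, 59.7%, 45.5% and 33.2% of their exon bases overlap a gene on the other strand and the use of strand in counting is not stated. SUS1 and SUS4 are close paralogs whose reads could be split.

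As a set, the genes were highest under ACC and lowest in etr1-1, apart from the library labelled etr1-1 mock 1. Set against the mean of the wild-type mock libraries on the log2(TPM + 1) scale, the median member stood at -0.49 and -0.46 in etr1-1 under PFT-alpha. It stood at 0.84 and -0.72 in the libraries labelled etr1-1 mock 1 and 2. In wild type it stood at 0.67, 0.25 and 0.08 under PFT-alpha, at 0.63, 1.22 and 0.17 under ACC, and at 0.45, -0.34 and -0.34 in mock. The median of all tested genes stayed between -0.12 and 0.08. In whole seedlings, fewer cells of a type and less RNA per cell cannot be told apart. Wild-type ACC 2 was the highest of the 13 libraries in 28 members. The lowest was etr1-1 mock 2 in 12 members and wild-type mock 3 in 9. For etr1-1 PFT-alpha 1 and 2 that count was 4 and 6. These ranks were not counted over all genes. Wild-type mock replicate 1 stood above PFT-alpha replicates 2 and 3 and above ACC replicate 3.

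**Figure D1:**
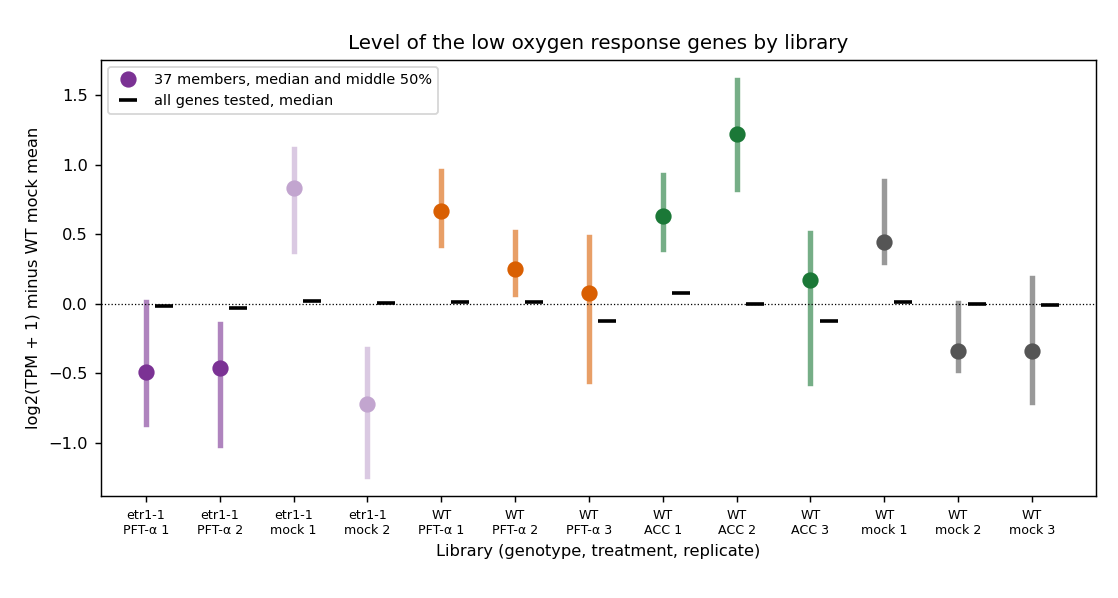
The vertical axis gives the log2(TPM + 1) of the 37 genes minus the mean of the wild-type (WT) mock libraries, and the horizontal axis the 13 libraries. Dots are medians, bars the middle 50% of the genes and dashes the median of all tested genes. The median ran from -0.72 in etr1-1 mock 2 to 1.22 in wild-type ACC 2.

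**Figure D2:**
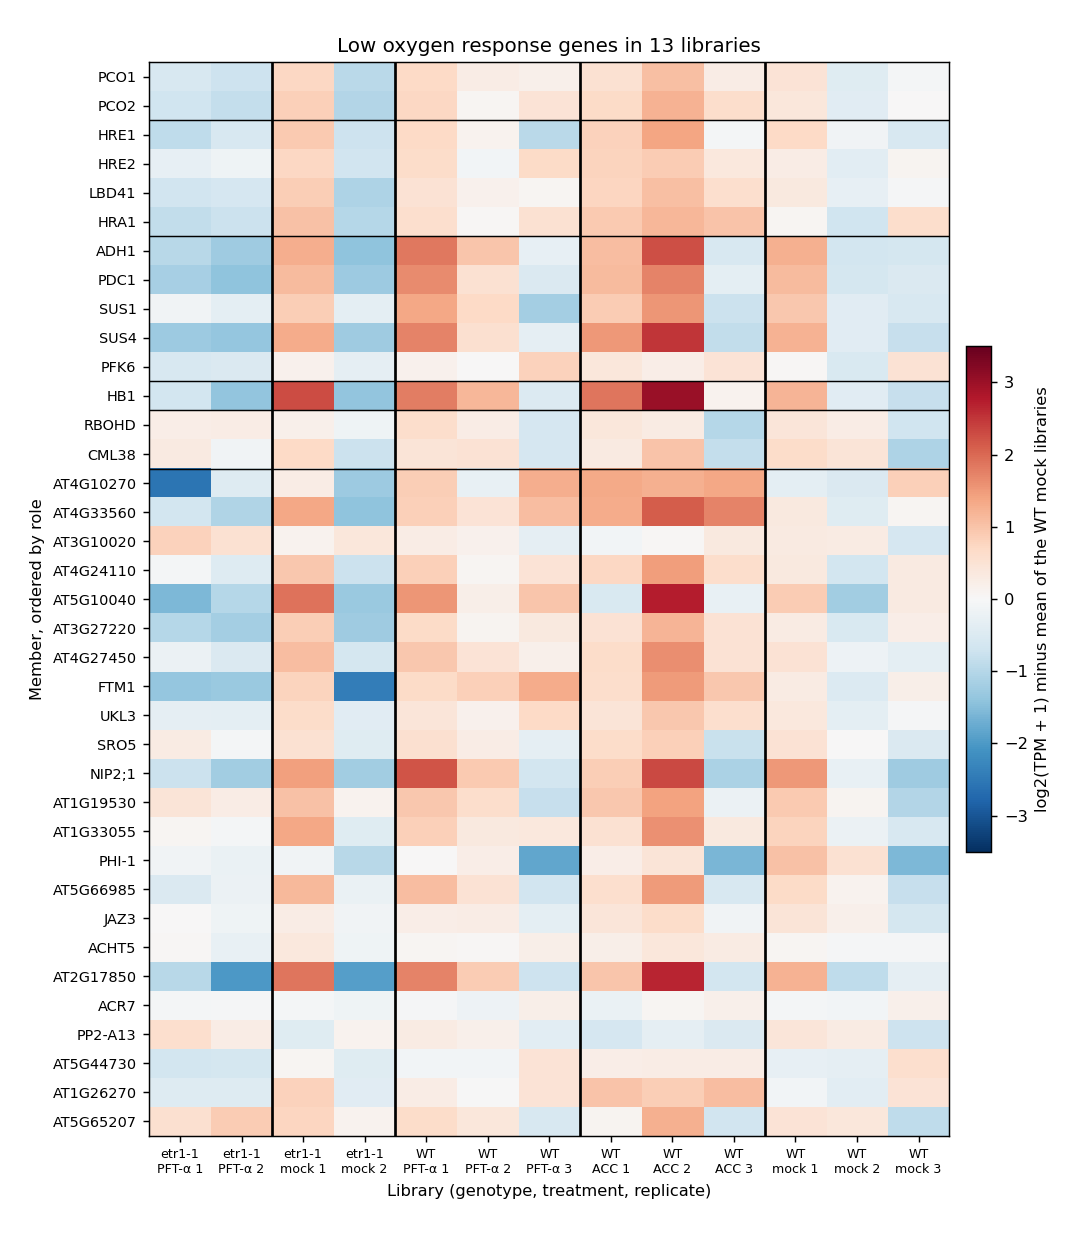
Each row is 1 gene, ordered by role, and each column 1 library. Colour gives the log2(TPM + 1) minus the mean of the wild-type mock libraries. HB1 in wild-type ACC 2 is the deepest red, and most rows are blue in etr1-1 under PFT-alpha and in etr1-1 mock 2 but red in the library labelled etr1-1 mock 1.

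PCO1 (AT5G15120) and PCO2 (AT5G39890) encode the plant cysteine oxidases that low oxygen induces. In etr1-1, PCO2 measured 16.4 and 14.9 TPM under PFT-alpha and 49.85 and 13 TPM in mock. In wild type it measured 46.3, 28.9 and 38.8 TPM under PFT-alpha, 44.2, 65.3 and 42.3 TPM under ACC and 36.1, 20.45 and 27.96 TPM in mock. All 3 ACC libraries lay above all 3 mock libraries, both etr1-1 PFT-alpha libraries lay below every wild-type library, and so did etr1-1 mock 2 but not the library labelled etr1-1 mock 1. PCO1 measured 44.8 and 39.3 TPM under PFT-alpha and 110.3 and 34.2 TPM in mock in etr1-1. In wild type PCO1 measured 108, 79.4 and 74.5 TPM under PFT-alpha, 96.5, 139 and 79.04 TPM under ACC and 93.2, 48.9 and 63.3 TPM in mock. For PCO1 the wild-type groups overlapped, and both etr1-1 PFT-alpha libraries were below every wild-type library.

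LBD41 (AT3G02550), a LOB-domain transcription factor gene, measured 31.6 and 33.6 TPM under PFT-alpha and 92.5 and 23.5 TPM in mock in etr1-1. In wild type LBD41 measured 73.1, 56.95 and 53.9 TPM under PFT-alpha, 86.05, 107 and 77.2 TPM under ACC and 65.25, 41.2 and 48.97 TPM in mock. The ACC libraries lay above all PFT-alpha and all mock libraries. HRA1 (AT3G10040) encodes a trihelix factor that restrains RAP2.12. It measured 9.19 and 10.01 TPM under PFT-alpha and 36.5 and 8.22 TPM in mock in etr1-1. Wild-type values of HRA1 were 26.7, 17.9 and 25.75 TPM under PFT-alpha, 34.2, 40.3 and 35.9 TPM under ACC and 18.3, 10.5 and 27.6 TPM in mock. Again the ACC libraries were above those of both other wild-type groups.

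HRE1 (AT1G72360) and HRE2 (AT2G47520) are group VII factors that low oxygen itself induces. HRE1 measured 20.1 and 25.6 TPM under PFT-alpha and 72.95 and 22.7 TPM in mock in etr1-1. In wild type HRE1 measured 62.65, 41.7 and 19.2 TPM under PFT-alpha, 67.05, 101 and 36.3 TPM under ACC and 62.4, 34.8 and 25.4 TPM in mock. Replicate 3 was the lowest library in each wild-type group, and the groups overlapped. HRE2 was the weakest of the 37, at 0.700 and 0.870 TPM under PFT-alpha and 2.41 and 0.290 TPM in mock in etr1-1. In wild type HRE2 measured 2.23, 0.950 and 2.26 TPM under PFT-alpha, 2.57, 2.82 and 1.65 TPM under ACC and 1.47, 0.610 and 1.22 TPM in mock, with ACC above mock in every library and PFT-alpha overlapping both.

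ADH1 (AT1G77120) makes ethanol from acetaldehyde in the last step of fermentation. In etr1-1 it measured 58.5 and 48.6 TPM under PFT-alpha and 279 and 42.65 TPM in mock. In wild type it measured 422.5, 228 and 95.5 TPM under PFT-alpha, 246, 559.6 and 77.9 TPM under ACC and 275, 74.5 and 75.6 TPM in mock. The spread inside each wild-type group was large and the 3 groups overlapped, while both etr1-1 PFT-alpha libraries lay below all 9 wild-type libraries. PDC1 (AT4G33070), the decarboxylase that supplies acetaldehyde, measured 35.9 and 30.2 TPM under PFT-alpha and 177 and 33.2 TPM in mock in etr1-1. PDC1 in wild type measured 256, 118 and 57.4 TPM under PFT-alpha, 176, 274 and 63.4 TPM under ACC and 178, 52.9 and 56.7 TPM in mock. Its libraries ranked much like those of ADH1, with replicate 1 of mock above replicates 2 and 3 of the same group. 

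SUS1 (AT5G20830) and SUS4 (AT3G43190) encode sucrose synthases, which feed sucrose into glycolysis. SUS4 measured 1.86 and 1.72 TPM under PFT-alpha and 16.1 and 1.92 TPM in mock in etr1-1. In wild type SUS4 measured 21.9, 9.12 and 4.52 TPM under PFT-alpha, 18.75, 38.4 and 2.83 TPM under ACC and 14.9, 4.22 and 2.95 TPM in mock. The 3 wild-type groups overlapped. SUS1 measured 9.53 and 8.16 TPM under PFT-alpha and 19.9 and 8.09 TPM in mock in etr1-1. Its wild-type values were 28.65, 17.8 and 4.04 TPM under PFT-alpha, 20.4, 32.4 and 5.86 TPM under ACC and 21.35, 7.84 and 6.76 TPM in mock. In both genes replicate 3 was the lowest library of each wild-type group, and SUS4 in etr1-1 under PFT-alpha was below every wild-type library. PFK6 (AT4G32840), a phosphofructokinase of glycolysis, measured 12.4 and 12.7 TPM under PFT-alpha and 20.6 and 14.6 TPM in mock in etr1-1. In wild type PFK6 measured 20.8, 18.8 and 33.5 TPM under PFT-alpha, 24.75, 21.85 and 26.3 TPM under ACC and 18.98, 12.6 and 26.6 TPM in mock, and here replicate 3 was the highest library of each group.

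HB1 (AT2G16060) encodes the phytoglobin that removes nitric oxide. It measured 39.1 and 23.01 TPM under PFT-alpha and 303 and 23.02 TPM in mock in etr1-1. In wild type it measured 212, 139 and 43.7 TPM under PFT-alpha, 229, 507 and 66.5 TPM under ACC and 142, 46.1 and 34.7 TPM in mock. HB1 spanned 22.0-fold over the 13 libraries, and the library labelled etr1-1 mock 1 stood above every wild-type library but ACC 2. RBOHD (AT5G47910), an oxidase that makes reactive oxygen, and CML38 (AT1G76650), a calmodulin-like protein, varied less, at 6.24 to 21.1 and 6.31 to 30.0 TPM. Their 3 lowest libraries included wild-type replicate 3 of ACC and of mock.

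**Figure D3:**
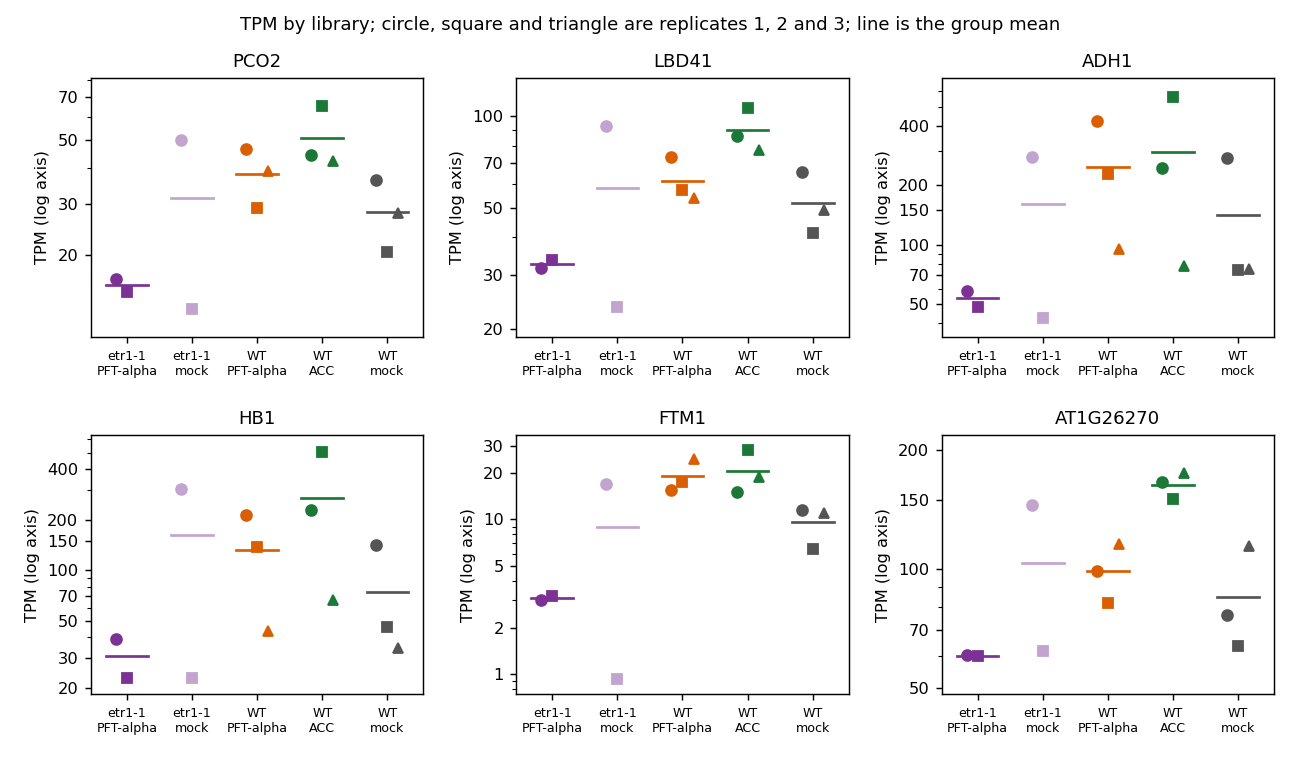
TPM on a log axis for 6 genes in the 5 groups, with 1 symbol per library by replicate and a line at the group mean. LBD41 and AT1G26270 under ACC lie above both other wild-type groups, ADH1 and HB1 spread widely inside groups, and the library labelled etr1-1 mock 1 lies above etr1-1 mock 2 in all 6.

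Among the other members, AT1G26270, annotated as a phosphatidylinositol 4-kinase, separated ACC from the rest of wild type. It measured 60.4 and 60.1 TPM under PFT-alpha and 145 and 61.96 TPM in mock in etr1-1. In wild type it measured 99.1, 81.9 and 116 TPM under PFT-alpha, 166, 150.3 and 175 TPM under ACC and 76.4, 63.65 and 115 TPM in mock. The ACC libraries were above all PFT-alpha and all mock libraries, while PFT-alpha and mock overlapped. AT4G33560, a wound-responsive family gene, measured 4.80 and 3.37 TPM under PFT-alpha and 22.2 and 2.40 TPM in mock in etr1-1. AT4G33560 in wild type measured 15.3, 11.6 and 18.2 TPM under PFT-alpha, 21.4, 38.45 and 29.1 TPM under ACC and 10.55, 5.80 and 8.55 TPM in mock. Its wild-type groups did not overlap at all, with ACC highest, PFT-alpha next and mock lowest. 

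AT4G10270, of the same wound-responsive family, measured 0 and 3.31 TPM under PFT-alpha and 6.07 and 1.44 TPM in mock in etr1-1. In wild type AT4G10270 measured 9.64, 3.95 and 13.3 TPM under PFT-alpha, 13.8, 12.9 and 13.95 TPM under ACC and 3.64, 3.16 and 9.59 TPM in mock. The 3 ACC libraries lay above mock but overlapped PFT-alpha, and mock replicate 3 was near the level of PFT-alpha replicate 1. FTM1 (AT1G43800), of the stearoyl-ACP desaturase family, measured 3.03 and 3.22 TPM under PFT-alpha and 16.8 and 0.930 TPM in mock in etr1-1. FTM1 in wild type measured 15.4, 17.4 and 24.5 TPM under PFT-alpha, 15.01, 27.96 and 18.8 TPM under ACC and 11.6, 6.46 and 10.9 TPM in mock. Both treatments lay above mock in every wild-type library, and both etr1-1 PFT-alpha libraries and etr1-1 mock 2 lay below all of them. AT5G10040 is a short gene listed at 0 in etr1-1 PFT-alpha 1 and at 19.0 TPM in wild-type ACC 2. Its 3 ACC libraries alone ran from 1.06 to 19.0 TPM.

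UKL3 (AT1G55810), a uridine kinase-like gene, measured 57.2 and 55.5 TPM under PFT-alpha and 111 and 53.4 TPM in mock in etr1-1. In wild type UKL3 measured 95.8, 79.6 and 116 TPM under PFT-alpha, 97.03, 137 and 107 TPM under ACC and 92.6, 55.97 and 69.4 TPM in mock, with all ACC libraries above mock. AT3G27220, a kelch repeat gene, measured 10.2 and 8.77 TPM under PFT-alpha and 39.3 and 8.35 TPM in mock in etr1-1. Its wild-type values were 34.35, 22.6 and 27.02 TPM under PFT-alpha, 30.85, 49.9 and 30.6 TPM under ACC and 26.3, 14.4 and 25.1 TPM in mock. Every ACC library was above every mock library. AT4G24110, of unknown function, measured 10.5 and 7.81 TPM under PFT-alpha and 22.4 and 6.27 TPM in mock in etr1-1. Its wild-type values were 20.8, 11.6 and 15.8 TPM under PFT-alpha, 19.1, 32.55 and 17.4 TPM under ACC and 14.3, 6.72 and 14.1 TPM in mock. AT4G24110 also had ACC above mock in every library, and in both genes the 2 etr1-1 PFT-alpha libraries lay below all wild-type PFT-alpha libraries. AT5G44730, a HAD-like hydrolase gene, measured 16.4 and 16.7 TPM under PFT-alpha and 27.8 and 19.4 TPM in mock in etr1-1. Its wild-type values were 24.3, 24.6 and 36.8 TPM under PFT-alpha, 31.1, 31.4 and 31.6 TPM under ACC and 21.35, 21 and 40.2 TPM in mock. Mock replicate 3 was its highest library, so that its wild-type groups overlapped.

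AT1G19530 was the most abundant member per length. It measured 1067 and 934 TPM under PFT-alpha and 1596 and 845 TPM in mock in etr1-1. In wild type AT1G19530 measured 1500.4, 1201 and 440.2 TPM under PFT-alpha, 1502, 2077 and 674 TPM under ACC and 1473, 830.3 and 384 TPM in mock, and replicate 3 was again the lowest library of each group. AT4G27450, an aluminium-induced protein family gene, measured 186 and 151 TPM under PFT-alpha and 449.8 and 139.7 TPM in mock in etr1-1. In wild type AT4G27450 measured 415, 298 and 242 TPM under PFT-alpha, 335, 662 and 301 TPM under ACC and 304, 191 and 169 TPM in mock, where ACC 2 was the highest library and the 3 groups overlapped. NIP2;1 (AT2G34390), an aquaporin-like channel for lactic acid, measured 19.1 and 13.6 TPM under PFT-alpha and 90.96 and 13.7 TPM in mock in etr1-1. Its wild-type values were 156, 63.4 and 20.6 TPM under PFT-alpha, 61.1, 167 and 14.7 TPM under ACC and 96.01, 27.4 and 13.3 TPM in mock. Replicate 3 was the lowest library of each wild-type group. AT2G17850, a rhodanese-like gene, measured 5.01 and 1.92 TPM under PFT-alpha and 41.8 and 2.08 TPM in mock in etr1-1. Its wild-type values were 38.15, 20.6 and 6.11 TPM under PFT-alpha, 21.9, 73.9 and 6.50 TPM under ACC and 26.2, 5.29 and 8.48 TPM in mock. For both, the highest library was wild-type ACC 2, and replicates 1 and 2 of PFT-alpha stood above replicate 3. ACR7 (AT4G22780), an ACT-domain gene, and ACHT5 (AT5G61440), a chloroplast thioredoxin gene, were the steadiest, with 1.38-fold and 1.58-fold between their lowest and highest libraries. JAZ3 (AT3G17860), a repressor of jasmonate signalling, ran from 14.01 to 34.9 TPM and SRO5 (AT5G62520) from 1.56 to 6.75 TPM. AT1G33055 ran from 14.2 to 67.0 TPM, AT5G66985 from 10.7 to 56.4 TPM and AT5G65207 from 62.5 to 277 TPM, each highest in wild-type ACC 2 and lowest in wild-type mock 3.

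AT3G10020, of unknown function, was highest in etr1-1 under PFT-alpha, where most members were low. It measured 766 and 634 TPM under PFT-alpha and 476 and 569 TPM in mock in etr1-1. In wild type AT3G10020 measured 518, 487 and 347 TPM under PFT-alpha, 406, 443.5 and 547 TPM under ACC and 538, 531 and 288 TPM in mock. Both etr1-1 PFT-alpha libraries were above all others of the series. The lowest library of AT3G10020 was wild-type mock 3, where the median member was also low, at -0.34. PP2-A13 (AT3G61060), a phloem protein gene with an F-box, measured 334 and 268 TPM under PFT-alpha and 166 and 243 TPM in mock in etr1-1. PP2-A13 in wild type measured 274, 255 and 171 TPM under PFT-alpha, 148, 178 and 157.5 TPM under ACC and 302, 272 and 135 TPM in mock, so that replicates 1 and 2 were lower under ACC than under PFT-alpha or in mock. PHI-1 (AT1G35140), an EXORDIUM-like gene, measured 7.75 and 7.16 TPM under PFT-alpha and 7.65 and 3.86 TPM in mock in etr1-1. PHI-1 in wild type measured 8.63, 10.2 and 1.72 TPM under PFT-alpha, 10.2, 11.95 and 2.15 TPM under ACC and 18.5, 12.7 and 2.22 TPM in mock, and was below mock in all 3 same-numbered pairs under both treatments.

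ACC against mock in wild type serves as the ethylene response. Of the 37 members 34 had a positive log2 difference, and the median was 0.69, against -0.00 over all genes tested. The seed remnant list moved in the same comparison, with 0 of 10 genes above 0 and a median of -1.07, and its part in the result was not tested. In 12 members (32.4%) every ACC library was above every mock library, and in 0 members every one was below. Over all genes tested these shares were 4.54% and 7.78%. The 12 were PCO2, HRE2, LBD41, HRA1, FTM1, UKL3, ACHT5, AT4G10270, AT4G33560, AT4G24110, AT3G27220 and AT1G26270. Thus 1 of 2 oxygen sensing genes, 3 of 4 transcription factor genes and 8 of 23 others were among them, and 0 of 5 fermentation and sugar use genes, although all 5 had positive differences (0.37 to 1.06).

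Across all 13 libraries limma called 0 of the 37 at an adjusted p under 0.05, with 4 at an unadjusted p under 0.05, as had 1769 of the 21091 genes, and it called 0.00948% of all genes tested. Replicate 3 of the wild-type groups moved together, while replicates 1 and 2 correlated no more within a number (0.28 to 0.55) than across numbers (0.29 to 0.54). With the replicate block over the 9 wild-type libraries 3 members rose, while 5.5% of all genes were called. AT1G26270 rose by 0.98 on the log2 scale (SE 0.13, adjusted p = 0.0069, and 0.2765 without the block). AT4G33560 rose by 1.72 (SE 0.27, adjusted p = 0.0147, and 0.325 without the block). LBD41 rose by 0.80 (SE 0.17, adjusted p = 0.042, and 0.681 without the block). AT4G10270, at 1.303 (SE 0.30, adjusted p = 0.0512), and HRA1, at 1.02 (SE 0.25, adjusted p = 0.0647), did not pass, and 20 members had an unadjusted p under 0.05, as had 3813 of all genes. Without a block, AT4G33560 also passed once either etr1-1 mock library was left out of the shared estimate of spread. Its adjusted p was 0.0155 without the library labelled etr1-1 mock 1, among 1.73% of all genes, and 0.0157 without etr1-1 mock 2, among 1.69%. The other 7 of the 12 were FTM1 at 1.01 (SE 0.63), AT4G24110 at 0.93 (SE 0.44), PCO2 at 0.83 (SE 0.41), AT3G27220 at 0.74 (SE 0.46), HRE2 at 0.68 (SE 0.36), UKL3 at 0.65 (SE 0.28) and ACHT5 at 0.30 (SE 0.15), with adjusted p of 0.538 to 0.878 without the block. HB1 had a difference of 1.68, with an SE of 0.47 and an adjusted p of 0.101 with the block over the 9 wild-type libraries. Its adjusted p without the block was 0.862. ADH1, PDC1 and SUS4 had differences of 0.92, 0.83 and 1.06, and neither HB1 nor any of these passed with or without the block. With the block over all 13 libraries AT1G26270 alone was called (adjusted p = 0.0422, against 0.106 for AT4G33560 and 0.27 for LBD41), among 3.37% of all genes. With library weights 5 members were higher (AT1G26270, AT4G33560, HRA1, PFK6 and AT5G44730) and PP2-A13 was lower, among 10.2% of all genes.

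ACC was above mock in all 3 same-numbered pairs in 17 members, against 14.9% of all genes. Because the numbers do not tell replicates 1 and 2 apart, this count rests on an arbitrary pairing of them. The pairs were unequal in size. For ADH1 the difference was -0.16 in pair 1, 2.89 in pair 2 and 0.04 in pair 3, and for HB1 it was 0.69, 3.43 and 0.92. Pair 2 joins ACC 2, which was the highest library, with a mock library among the lower ones, and the mean difference of ADH1 rested on that pair. For AT1G26270 the pairs gave 1.11, 1.23 and 0.60. Without the 3 replicate 3 libraries, a choice made after the data were seen, 21 members lay above mock and 3 below, against 28.2% and 23.2% of all genes.

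**Figure D4:**
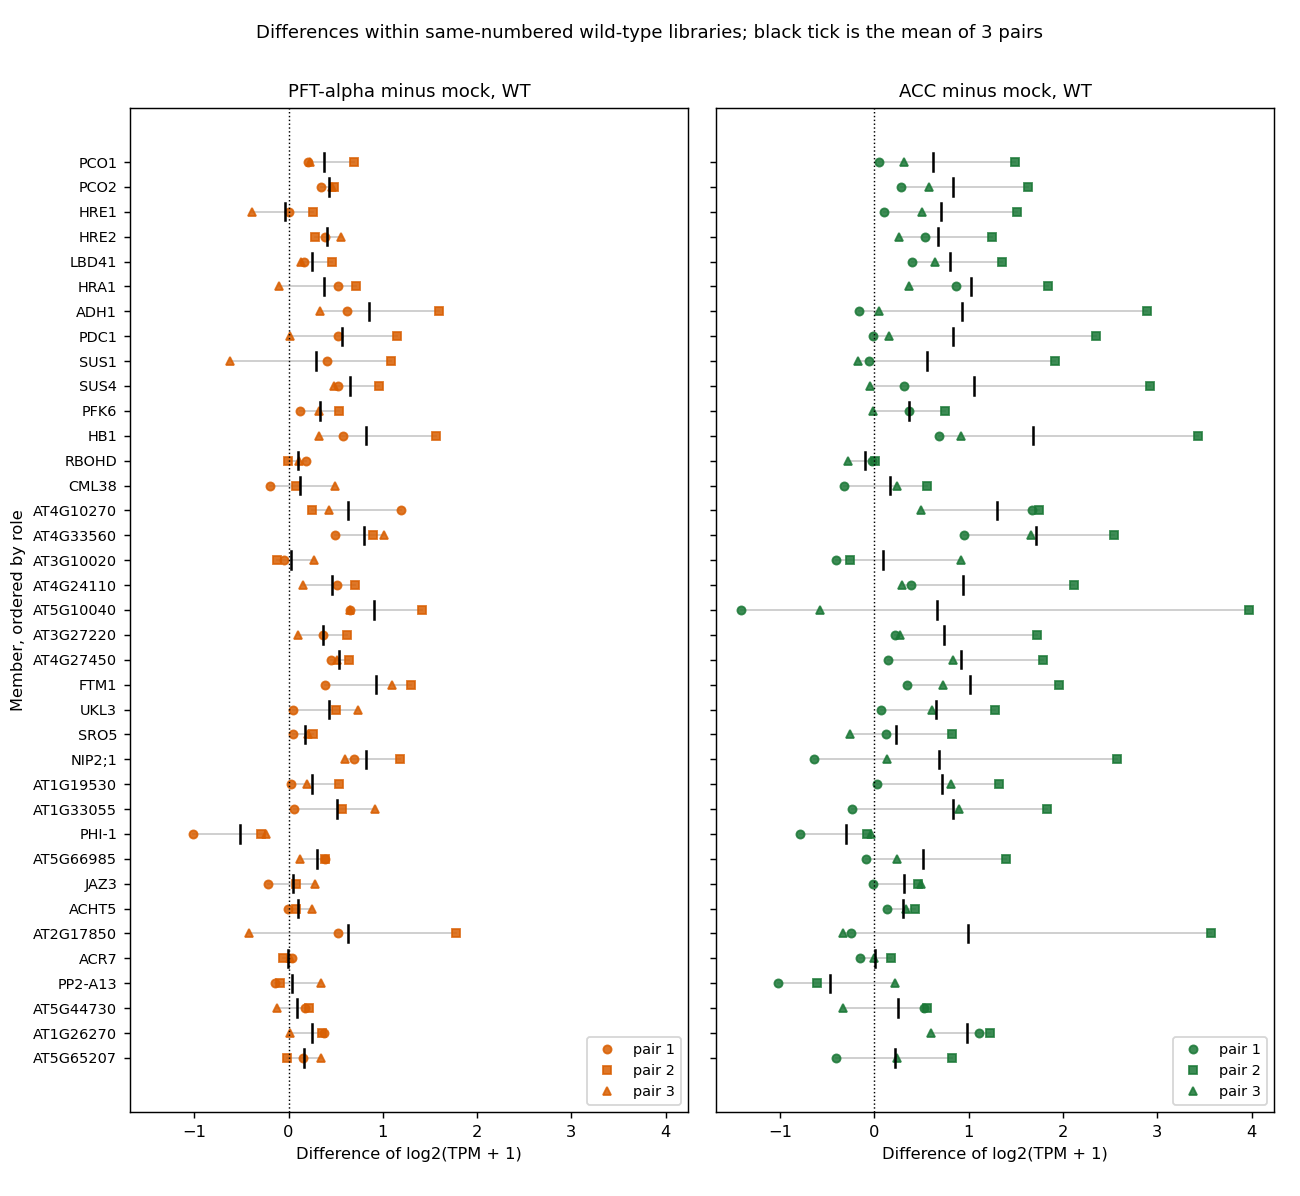
Differences of log2(TPM + 1) within same-numbered wild-type libraries, PFT-alpha minus mock on the left and ACC minus mock on the right, 1 row per gene. Symbols are pairs 1, 2 and 3 and the black tick their mean. Pair 2 (squares) lies farthest right for most genes under ACC, and most PFT-alpha means lie between 0 and 1.

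The effect of PFT-alpha alone was read against the same wild-type mock libraries that served for ACC. The median member differed by 0.36 with 34 of 37 above 0, against -0.02 over all genes. The seed remnant list again had 0 of 10 genes above 0, with a median of -1.44, and its part was not tested. PFT-alpha was above mock in all 3 same-numbered pairs in 23 members, against 12% of all genes. These included PCO1, PCO2, LBD41, ADH1, PDC1, SUS4 and HB1. Replicate numbers do not tell wild-type replicates 1 and 2 apart, so the count by pairs rests on an arbitrary pairing of them. In each gene just named, PFT-alpha replicate 2 lay below mock replicate 1, as in ADH1 at 228 against 275 TPM. In 2 members the groups did not overlap and PFT-alpha was higher, FTM1 and AT4G33560, and in 0 it was lower. The shares of all genes were 1.08% and 2.57%. 

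No member passed the test. FTM1 differed by 0.93 (SE 0.63) and AT4G33560 by 0.80 (SE 0.56), each with an adjusted p of 1. With the replicate block their SE fell to 0.28 and 0.27, and the adjusted p was still 1. Limma called 0% of all genes without the block and 0% with it. At an unadjusted p under 0.05 it found 0 members and 147 of all genes without the block, and 3 members and 817 genes with it. HB1 differed by 0.58, 1.57 and 0.32 in the 3 pairs, ADH1 by 0.62, 1.60 and 0.33, and PCO2 by 0.35, 0.48 and 0.46. Pair 2 was again the largest for HB1 and ADH1. Without replicate 3 the groups did not overlap in 5 members with PFT-alpha higher and 2 with PFT-alpha lower, against 20.2% and 20.1% of all genes, which is below those shares.

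Set directly against ACC, most members were lower under PFT-alpha, with 33 of 37 below 0 and a median of -0.27, against -0.01 over all genes. In 4 members every PFT-alpha library was below every ACC library (LBD41, HRA1, AT4G33560 and AT1G26270), and in 0 every one was above. These are 10.8% of the members, against 4.35% of all genes for lower and 4.89% for higher. In same-numbered pairs 11 members were lower in all 3 and 1, PP2-A13, was higher in all 3, against 17.2% and 15.3% of all genes. Here too the pairing of replicates 1 and 2 is arbitrary. FTM1 and ADH1 differed little, by -0.08 and -0.07, with 2 of 3 pairs higher under PFT-alpha.

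AT1G26270 fell by 0.73 relative to ACC with the replicate block (SE 0.13, adjusted p = 0.0325). The adjusted p was 0.171 with the block over all 13 libraries and 0.809 without a block, so that among the alternatives run the call held only with the block over the 9 wild-type libraries and with library weights. It was the 1 member called with the block over 9, among 2.61% of all genes. Without the block 0 members and 0% of genes were called, and 1 member and 1168 of all genes had an unadjusted p under 0.05. AT4G33560 differed by -0.92 (SE 0.27, adjusted p = 0.17), HRA1 by -0.64 (SE 0.25, adjusted p = 0.297) and LBD41 by -0.55 (SE 0.17, adjusted p = 0.189) with the block. With library weights AT1G26270 was lower and PP2-A13 higher, among 5.64% of all genes. Without replicate 3 the count with PFT-alpha lower was 16 and with PFT-alpha higher 2, against 25.1% and 20.7% of all genes.

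The etr1-1 and wild-type libraries under PFT-alpha were separated in most members, with 2 libraries set against 3. In 23 of 37 members (62.2%) both etr1-1 libraries were below all 3 wild-type libraries, and in 1, AT3G10020, both were above. All genes gave 16.6% and 15.3%. The 23 held both PCO genes, 3 of 4 transcription factor genes (all but HRE1), 4 of 5 fermentation and sugar use genes (all but SUS1), HB1 and 13 of 23 others. The median difference was -0.73, against 0.01 over all genes, and 31 members were below 0. Without wild-type replicate 3 the counts were 31 lower and 1 higher, against 33.9% and 21.8% of all genes.

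FTM1 had the largest difference of the 37, at -2.26 (SE 0.71, adjusted p = 0.524), with 3.03 and 3.22 TPM in etr1-1 against 15.4, 17.4 and 24.5 TPM in wild type. ADH1 differed by -1.96 (SE 1.00), SUS4 by -1.96 (SE 1.05), PDC1 by -1.84 (SE 0.87) and HB1 by -1.83 (SE 1.15). PCO2 differed by -1.20 (SE 0.46), PCO1 by -1.02 (SE 0.44) and LBD41 by -0.88 (SE 0.44). HRA1 differed by -1.19 (SE 0.51), HRE2 by -0.62 (SE 0.40) and PFK6 by -0.86 (SE 0.30). Among the others, AT2G17850 differed by -2.12 (SE 1.23), NIP2;1 by -1.815 (SE 1.19), AT4G33560 by -1.65 (SE 0.63) and AT3G27220 by -1.45 (SE 0.51). Smaller differences were -0.89 for AT4G27450, -0.76 for UKL3, -0.73 for AT5G44730 and for AT4G24110, -0.69 for AT1G26270 and -0.51 for AT1G33055. AT4G10270 and AT5G10040 were listed at 0 in 1 etr1-1 library and get no fold. AT3G10020 differed by 0.65 (SE 0.30). Limma called 0 of the 37, with adjusted p of 0.524 to 0.994, and 10 had an unadjusted p under 0.05, as had 1438 of all genes. It called 0.0284% of all genes. FTM1 passed once either etr1-1 mock library was left out, which is in neither group compared but adds to the spread. It fell by 2.26, with an adjusted p of 0.0182 without the library labelled etr1-1 mock 1, among 0.474% of all genes, and of 0.0186 without etr1-1 mock 2, among 0.474%. With library weights 17 members were lower and AT3G10020 higher at an adjusted p under 0.05, among 15.6% of all genes. The seed remnant list summed to 5433 and 6021 TPM in these etr1-1 libraries, against 276 to 2136 TPM in wild type under PFT-alpha, and its part in the result was not tested.

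Whether the genotypes differed without the molecule depended on which etr1-1 mock library was used. With both, 0 members lay below and 0 above all 3 wild-type mock libraries, against 4.31% and 7.12% of all genes, and the median difference was 0.02. The library labelled etr1-1 mock 1 was at least 2-fold above etr1-1 mock 2 on the log2(TPM + 1) scale in 25 members, against 3.39% of all genes. HB1 measured 302.7 TPM in mock 1 and 23.0 TPM in mock 2, a 13.1-fold difference, and ADH1 279 and 42.6 TPM. FTM1 measured 16.8 and 0.93 TPM and AT2G17850 41.8 and 2.08 TPM. AT3G10020 and PP2-A13 were the 2 members lower in mock 1. 

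Without the library labelled etr1-1 mock 1, a choice made after the data were seen, the other library was below all 3 wild-type mock libraries in 23 members and above them in 1, AT3G10020. All genes gave 15.4% and 20%. These counts rest on 1 library. The 23 included HRE1, HRE2, PCO1, PCO2, LBD41, HRA1, ADH1, PDC1, SUS4 and HB1. Without wild-type replicate 3 and with both etr1-1 libraries, 3 members were below and 0 above, against 19.3% and 22.7% of all genes. Limma called 0 members in mock, with 0 at an unadjusted p under 0.05, and 0.0284% of all genes.

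PFT-alpha against mock in etr1-1 turned in direction with the same library. The median was -0.51 with both mock libraries, against -0.05 over all genes, and it was 0.25 without the library labelled etr1-1 mock 1 and -1.35 without etr1-1 mock 2. Both PFT-alpha libraries were above both mock libraries in 4 members (AT3G10020, RBOHD, ACR7 and PP2-A13) and below in 4 (SUS4, PFK6, AT5G44730 and AT1G26270), against 13.4% and 24.5% of all genes. Against etr1-1 mock 2 alone, both were above in 23 members and below in 4, against 29.5% and 43.3% of all genes. SUS4 differed by -1.34 (SE 1.15), AT1G26270 by -0.65 (SE 0.36), PP2-A13 by 0.57 (SE 0.37) and AT3G10020 by 0.42 (SE 0.33), each with an adjusted p of 1. The other 4 were AT5G44730 at -0.47 (SE 0.31), PFK6 at -0.44 (SE 0.33), RBOHD at 0.24 (SE 0.53) and ACR7 at 0.06 (SE 0.18). Without etr1-1 mock 2, so that the library labelled etr1-1 mock 1 stood alone and was taken to vary like the other groups, AT4G33560 fell by 2.20 (SE 0.41, adjusted p = 0.0439, but a difference of 0.57 with an adjusted p of 1 without mock 1), among 0.948% of all genes. With all libraries limma called 0 members, with 0 at an unadjusted p under 0.05, and 0.0142% of all genes.

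The response to PFT-alpha in etr1-1 minus that in wild type, the test of the difference itself, had a median of -0.87 over the 37, with 30 below 0, against -0.02 over all genes. It was -0.18 without the library labelled etr1-1 mock 1. Limma called 0 members, with an adjusted p of 1.00 for each and 0 at an unadjusted p under 0.05, and 0.00474% of all genes. Without etr1-1 mock 2, FTM1 at -3.04 (SE 0.50) and AT4G33560 at -3.00 (SE 0.49) were called, each with an adjusted p of 0.0331, among 0.64% of all genes. Without the library labelled etr1-1 mock 1 they were 0.17 and -0.23, each with an adjusted p of 1, so that the sign of FTM1 turned. With all libraries, the data do not show that the members answered PFT-alpha differently in the 2 genotypes, nor that they answered alike.

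Within wild type, replicate 3 stood apart for many members. In 21 members replicate 3 was below the mean of replicates 1 and 2 in all 3 groups and in 6 it was above in all 3, against 41.7% and 26.7% of all genes. On the log2 scale replicate 3 differed in NIP2;1 by -2.22, -2.70 and -1.875 under PFT-alpha, under ACC and in mock, and in ADH1 by -1.69, -2.24 and -0.91. The same libraries held the higher antenna and Rubisco sums given above. The 6 that were higher were AT4G10270, AT4G33560, PFK6, ACR7, AT5G44730 and AT1G26270. PCO2 shifted by 0.08, -0.34 and 0.04. Of the 12 members whose ACC and mock libraries did not overlap, 3 were among these 6 (AT1G26270, AT4G33560 and AT4G10270).

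Of other genes of the pathway, 13 oxygen sensing genes were in the table and 12 passed the filter, and of 23 further anaerobic metabolism genes 20 passed. Limma called 0 of either list in any comparison without the block, and their median differences under ACC were -0.02 and 0.06. With the block over the 9 wild-type libraries, ACC raised RAP2.2 (AT3G14230) by 0.90 (SE 0.11, adjusted p = 0.00684, and 0.0966 with the block over all 13) and RAP2.3 (AT3G16770) by 1.15 (SE 0.18, adjusted p = 0.015, and 0.04195 with the block over all 13), both group VII factors. RAP2.2 measured 288 and 269.7 TPM under PFT-alpha and 760.3 and 266 TPM in mock in etr1-1. RAP2.2 in wild type measured 479, 414 and 354.5 TPM under PFT-alpha, 735, 781 and 629 TPM under ACC and 435, 356 and 359.8 TPM in mock. Its ACC libraries were above all other wild-type libraries, and the library labelled etr1-1 mock 1 lay among them. With the block over 9 RAP2.2 fell by 0.79 under PFT-alpha relative to ACC (SE 0.11, adjusted p = 0.0204), a call lost with the block over all 13 libraries (0.2202) and without a block (0.801). RAP2.12 (AT1G53910) stayed at 208 to 288 TPM in every library.

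In the anaerobic metabolism list, with the block over 9, ACC raised PPDK (AT4G15530), which links pyruvate and phosphoenolpyruvate, by 0.67 (SE 0.13, adjusted p = 0.0276). With that block it lowered HB2 (AT3G10520), the second phytoglobin, by 0.80 (SE 0.13, adjusted p = 0.0146), and 5.5% of all genes were called. Without the block neither passed, with an SE of 0.52 for PPDK and an adjusted p of 0.1915 for HB2. PPDK measured 184, 132 and 64.8 TPM under ACC and 107, 104 and 34.7 TPM in mock in wild type, so that these groups overlapped. HB2 measured 35.2, 37.03 and 26.2 TPM under PFT-alpha, 20.1, 27.7 and 17.4 TPM under ACC and 37.9, 38.8 and 36.9 TPM in mock in wild type, so that its mock libraries lay above all ACC libraries. For HB1 the difference was positive and did not pass. For PFT-alpha against mock 0 genes of either list passed, with or without the block. HRU1 (AT3G03270), a universal stress protein gene tied to RBOHD, measured 76.3 and 54.1 TPM under PFT-alpha and 200.3 and 50.1 TPM in mock in etr1-1. In wild type HRU1 measured 159, 122 and 62.6 TPM under PFT-alpha, 95.6, 243 and 67.4 TPM under ACC and 129.6, 64.6 and 42.2 TPM in mock. It was highest in wild-type ACC 2 and in the library labelled etr1-1 mock 1, as HB1 was.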

How the data were processed

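PolyA RNA of whole Arabidopsis thaliana seedlings was sequenced in 13 libraries. The values are TPM per gene as deposited by the authors in 1 table of 33033 genes, and read counts were not used here. The submitters' processing notes name fastp, HISAT2, HISAT, StringTie, RSEM, DESeq2 and build TAIR10, without versions or roles, and the use of strand is not given in the sources used here. The series' design text gives 3 biological replicates a treatment for Col-0, and the etr1-1 groups have 2 libraries each here, whose origin the labels do not state. For these, p-values measure only the spread between these samples, which may be technical.

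Genes at 1 TPM or more in at least 2 libraries (21091) were tested with limma 3.58.1 (R 4.3.3, trend) on log2(TPM + 1) over all 13 libraries, with 5 group means, Benjamini-Hochberg adjustment over all tested genes and an adjusted p under 0.05 as the threshold. Fold changes on this scale understate the change of low genes. The test was tried on simulated data first. Tables were made with Python 3.11.15, numpy 2.4.6 and pandas 2.3.3. Adjusted p-values in the report come from these limma fits.

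Replicate numbers were tested for pairing by correlating deviations from group means. Same-numbered wild-type libraries correlated at 0.28 to 0.77 over 9 pairs, so by the rule that every pair exceed 0.1 the block over the 9 wild-type libraries is given where it changed a call. Among wild-type replicates 1 and 2, however, libraries of different number correlated at 0.29 to 0.54 and of the same number at 0.28 to 0.55, so the numbers do not tell these apart. The labels do not say what a number shares, and wild-type and etr1-1 libraries of the same number correlated at -0.22 to 0.24. Depth was estimated from TPM steps, where 84.5% to 88.8% of low values lay within 0.15 of a whole step. Alternatives were pseudocounts of 0.1 and 5, no filter, a 5 TPM filter, median-of-ratios scaling, library weights, the replicate block, wild-type replicate 3 left out and each library left out. Motifs were read from the RefSeq genome TAIR10.1, and 1 of the matched stretches is not reported here. The 37 genes and the other lists were chosen with earlier results of these data known. Differences are given for members whose groups did not overlap or that limma called with or without the block, largest first and at most 30 a comparison. Those given for HB1, ADH1, PDC1 and SUS4 under ACC, for ADH1, HB1, FTM1 and PCO2 by pair or between treatments, and the pairs of AT1G26270, were added after their values were seen.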

Additional observations from a re-analysis of the deposited data

How the results depend on the processing

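The count of members called moved as follows. For ACC against mock in wild type it was 0 without a block, 1 with the replicate block over 13 libraries, 3 with the replicate block over the 9 wild-type libraries and 6 with library weights. For PFT-alpha against ACC it was 1 with the replicate block over the 9 wild-type libraries and 2 with weights, and for etr1-1 against wild type under PFT-alpha it was 18 with weights. With the replicate block over 13 libraries PFT-alpha against ACC gave 0. The replicate block changed no other member's call. Leaving out 1 library gave 0 to 1 members for ACC against mock, for PFT-alpha against mock in etr1-1 and for etr1-1 against wild type under PFT-alpha, and 0 to 2 for the interaction. Every count above 0 came from leaving out an etr1-1 mock library, and the members were AT4G33560 and FTM1. It gave medians of -0.72 to 0.84 for etr1-1 against wild type in mock, -1.35 to 0.25 for PFT-alpha against mock in etr1-1 and -1.67 to -0.18 for the interaction, and the extremes were those without an etr1-1 mock library. Without wild-type replicate 3 the counts of members whose groups did not overlap were 21 higher and 3 lower for ACC against mock, 5 and 2 for PFT-alpha against mock, 2 and 16 for PFT-alpha against ACC, and 3 lower for etr1-1 against wild type in mock. Without the library labelled etr1-1 mock 1 they were 1 higher and 23 lower for etr1-1 against wild type in mock and 23 higher for PFT-alpha against mock in etr1-1. The cause of these moves was not tested. Calls made without etr1-1 mock 2 changed sign without mock 1 for AT4G33560 (PFT-alpha against mock in etr1-1) and FTM1 (interaction). Pseudocounts, filters and scaling moved none of these counts by over 1.5 times, and scaling moved the median of all genes by at most 0.04. Limits of depth weigh most on the short or low genes HRE2, AT5G10040 and AT4G10270.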
